A study of Mus musculus with 6 samples.

Results

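The 8 genes described here carry out the housekeeping of astrocytes around synapses, and were taken by name from the 26049 genes of the deposited count matrix. Slc1a2 (GLT-1) and Slc1a3 (GLAST) are the glutamate transporters of astrocytes, Slc6a11 (GAT-3) takes up GABA, and Glul codes for glutamine synthetase, which turns glutamate and ammonia into glutamine. Gja1 (connexin 43) and Gjb6 (connexin 30) form the gap junctions that couple astrocytes to each other. Slc4a4 (NBCe1) carries sodium and bicarbonate together across the membrane, and Mlc1 codes for a membrane protein of astrocyte end-feet that takes part in volume control.

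Nuclei came from hippocampi of male PS19 mice, which express human tau with the P301S mutation under the prion protein promoter, in all groups. Mild traumatic brain injury (TBI) was set by controlled cortical impact over the right hemisphere, and other mice were sham-operated. AAV-VEGFC, a viral vector for the lymphatic growth factor VEGFC, or AAV-GFP as control was given in both arms. The 6 single-nucleus libraries were TBI VEGFC left, TBI GFP left, TBI VEGFC right, TBI GFP right, sham VEGFC right and sham GFP right, 1 each. The number of mice per library and their age were not given in the labels, nor whether the same mice gave both sides, so the p-values below measure the spread between these libraries only. The left side had no sham library.

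Glutamate released at a synapse is cleared mainly by astrocytes, which turn it into glutamine and hand the glutamine back to neurons. Uptake is driven by the sodium gradient and brings protons and potassium changes with it, so it works alongside bicarbonate transport, potassium buffering and water movement. Gap junctions let astrocytes share these loads across a network. In the hippocampus the transporter genes are known as markers of mature astrocytes, and Slc1a3 is also known from radial glia and the stem cells of the dentate gyrus.

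The files held 28650 nuclei, 3676 to 6002 per library, and 15358208 to 18379148 unique molecular identifiers (UMIs, 1 per captured RNA molecule) per library. The authors' annotation gave 5692 astrocyte nuclei, 778 to 1111 per library, in clusters of 207 (Astrocyte 2), 1805 (Astrocyte 3) and 3680 (Astrocyte 1). All 10 astrocyte markers used as a check, among them Aqp4, Gfap, Sox9 and Ntsr2, were detected in the astrocyte class, where they summed to 8978 to 9696 CPM (counts per 1000000 UMIs) over the libraries, against 309 CPM in all other nuclei. In every astrocyte library, markers of other cell types were also present. Choroid plexus markers summed to 318 to 723 CPM, against 681 CPM in all other nuclei together. Pan-neuronal markers summed to 231 to 426 CPM (13603 in the other nuclei) and microglial markers to 194 to 325 CPM (234). Mural markers, at 130 to 169 CPM, were above the 17.4 CPM of the other nuclei in every library. Across the series, 91 cell barcodes occurred in more than 1 library, with 0 to 14 per pair of libraries.

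All 8 genes are protein coding, and their positions follow the mm10 (GRCm38) annotation. Slc1a2 lies on the plus strand of chromosome 2 (102658659 to 102790784) and Slc1a3 on the minus strand of chromosome 15 (8634124 to 8710764). Mlc1 shares chromosome 15 and its strand (88955884 to 88979007). Glul lies on the plus strand of chromosome 1 (153899944 to 153909723), Slc6a11 on the plus strand of chromosome 6 (114131241 to 114249952) and Slc4a4 on the plus strand of chromosome 5 (88886818 to 89239653). The connexin genes are Gja1 on the plus strand of chromosome 10 (56377330 to 56402513) and Gjb6 on the minus strand of chromosome 14 (57123303 to 57133611). Annotated genes on the opposite strand overlapped 3 of the 8, and 2 of these partners had counts. The antisense transcript Gm13872 lies within Slc1a2 and was at 154 CPM in astrocytes, and Teddm2 overlaps Glul and was at 6.62 CPM. The pseudogene Gm8132 within Slc6a11 was not analysed here. No source used here gives the strand setting of the counting, so reads of these pairs cannot be told apart with certainty.

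The RefSeq promoter table (GRCm38.p6) held 9 windows for the 8 genes, since Slc4a4 had 2 starts. The 250 bases before the listed start are shown for both glutamate transporters, which differed in opposite directions between Astrocyte 2 and Astrocyte 1. They are also shown for both starts of Slc4a4, which was high in astrocytes and in some neurons. The Slc1a2 window begins at 102706188, inside the gene model given above, which starts at 102658659. It thus precedes an internal start and not the start of that model. Both Slc4a4 windows also lie within their gene model, which starts at 88886818. Capitals mark TTGGC or its reverse complement GCCAA (the half-site of nuclear factor I proteins). They also mark TATAAA (the letters of the TATA box) or its reverse complement TTTATA. All windows are written 5′ to 3′ on the strand of the gene. The mark in the Slc1a3 window is the reverse complement TTTATA, and whether it acts as a TATA box was not tested.
Slc1a2 (chr2:102706188-102706437, plus strand): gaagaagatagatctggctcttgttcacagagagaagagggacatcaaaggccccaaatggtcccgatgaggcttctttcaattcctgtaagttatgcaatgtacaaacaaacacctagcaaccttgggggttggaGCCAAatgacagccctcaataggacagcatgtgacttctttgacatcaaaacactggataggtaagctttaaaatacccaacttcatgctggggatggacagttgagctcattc
Slc1a3 (chr15:8710808-8711057, minus strand): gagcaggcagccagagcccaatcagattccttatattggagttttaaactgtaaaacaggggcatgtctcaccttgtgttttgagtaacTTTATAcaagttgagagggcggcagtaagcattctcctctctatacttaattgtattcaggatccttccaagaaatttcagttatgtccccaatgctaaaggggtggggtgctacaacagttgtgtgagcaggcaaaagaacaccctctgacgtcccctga
Slc4a4, upstream start (chr5:88887010-88887259, plus strand): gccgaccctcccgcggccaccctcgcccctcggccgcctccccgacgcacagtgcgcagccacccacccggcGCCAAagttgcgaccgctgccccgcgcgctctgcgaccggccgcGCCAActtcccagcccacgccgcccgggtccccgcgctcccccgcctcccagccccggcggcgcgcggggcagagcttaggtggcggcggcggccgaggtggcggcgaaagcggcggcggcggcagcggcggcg
Slc4a4, downstream start (chr5:89027716-89027965, plus strand): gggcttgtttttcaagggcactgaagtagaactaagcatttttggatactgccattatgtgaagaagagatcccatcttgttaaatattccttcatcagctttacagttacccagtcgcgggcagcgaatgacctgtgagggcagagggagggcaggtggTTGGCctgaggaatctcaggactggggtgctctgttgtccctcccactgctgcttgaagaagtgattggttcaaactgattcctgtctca
The upstream Slc4a4 window was 82.0% G or C and held TTGGC at 2 places, whereas the downstream window was 48.8% G or C and held it at 1. Over 32851 promoter windows of the same length, the median was 52.4% G or C. The Slc1a2 window held TTGGC at 1 place and the Slc1a3 window at none, and both were 44.8% G or C. TTGGC was found in 5 of the 9 windows and in 41.5% of all windows, TATAAA in 1 of 9 and in 12.4%, and the SOX core AACAAT in 0 of 9 and in 9.42%. Each motif was searched on both strands, and the motifs do not overlap each other in their letters. The libraries were counted from the 3′ end of transcripts, so the start used in a nucleus was not measured.

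Among the 9 classes, 7 of the 8 genes were highest in astrocytes, and the exception was Gjb6, which was higher in fibroblasts. Levels are CPM over all nuclei of a class, in each library or over all 6 together, and are compared here between classes for 1 gene at a time. They are descriptions with no test, since these genes were among those used to group the nuclei. CPM is not adjusted for transcript length.

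Slc1a2 averaged 5573 ± 202 CPM in astrocytes (SD, n = 6 libraries), from 5299 to 5866. Next were oligodendrocyte precursor cells (OPC) with 269 ± 19.6 CPM and excitatory neurons with 174 ± 16.6 CPM. Astrocytes stood apart from every other class by more than the spread over libraries, and the OPC range of 233 to 291 CPM lay above the excitatory range of 156 to 202 CPM. Mixed neurons (75.6 CPM over all libraries), inhibitory neurons (71.5), oligodendrocytes (59.8) and microglia (54.8) overlapped each other in their library ranges. Fibroblasts had 131 CPM over all libraries, with a wide spread (206 ± 222 CPM) that is described with the tests outside astrocytes. Choroid plexus epithelium had 27.6 CPM. After each nucleus was thinned to 1000 UMIs, 96.4% of astrocyte nuclei held a Slc1a2 UMI (98.5% before thinning), against 2.94% of choroid plexus nuclei (6.72% before thinning). The median nucleus had 1671 UMIs in astrocytes and 2374.5 in choroid plexus.

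Slc1a3 averaged 2569 ± 159 CPM in astrocytes, with 2365 to 2838 over libraries. It was also high in fibroblasts, at 1353 ± 229 CPM and 1033 to 1607 over libraries, and reached 460 ± 165 CPM in microglia. OPC had 204 ± 36.4 CPM and oligodendrocytes 156 ± 23.8 CPM. The fibroblast range lay below the astrocyte range and above the microglial range of 189 to 614 CPM, while OPC overlapped microglia on one side and oligodendrocytes on the other. All neurons were low, with 22.6 CPM in excitatory and 17.1 CPM in inhibitory neurons. The thinned share of nuclei with a UMI was 87.3% in astrocytes, 63.1% in fibroblasts and 2.02% in choroid plexus, against 94.7%, 71.6% and 4.64% before thinning.

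Glul, the enzyme of the cycle, was also high in fibroblasts and oligodendrocytes. It averaged 437 ± 36.9 CPM in astrocytes, 411 ± 65.9 in fibroblasts, 321 ± 22.3 in oligodendrocytes and 141 ± 40.5 in microglia. Astrocytes and fibroblasts overlapped in their library ranges (389 to 502 and 343 to 525 CPM). Every oligodendrocyte library (287 to 353 CPM) lay below every astrocyte library. OPC held 24.4 CPM and excitatory neurons 7.39 CPM, so mature oligodendrocytes and their precursors stood far apart in this gene.

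The connexins differed in where they were found outside astrocytes. Gja1 averaged 636 ± 41.0 CPM in astrocytes, against 313 ± 102 CPM in fibroblasts, and every astrocyte library (553 to 665 CPM) lay above every fibroblast library (202 to 503 CPM). Gjb6 averaged 516 ± 102 CPM in fibroblasts (425 to 707 over libraries) and 228 ± 21.4 CPM in astrocytes (187 to 245), with no overlap. In the other 7 classes Gjb6 was at 4.63 CPM or less. The ratio of Gja1 to Gjb6 UMIs was thus 2.77 in astrocytes and 0.587 in fibroblasts, with 95% intervals for counting error of 2.65 to 2.91 and 0.484 to 0.709. In thinned data, Gja1 UMIs were found in 45.3% of astrocyte nuclei and 1.97% of choroid plexus nuclei (62.4% and 4.64% before thinning). Gjb6 UMIs were found in 19.9% and 0.464% of the same classes (31.7% and 1.08% before thinning).

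Slc4a4 was the member with the smallest share of its UMIs in astrocytes. It averaged 1584 ± 88.9 CPM in astrocytes, 335 ± 42.9 in excitatory neurons, 212 ± 39.0 in fibroblasts and 111 ± 57.3 in inhibitory neurons. Excitatory neurons, with 12428 nuclei and a median of 4222.5 UMIs per nucleus, supplied 49.7% of all Slc4a4 UMIs. Astrocytes, with 5692 nuclei and a median of 1671 UMIs, supplied 43.0%. For the other genes, astrocytes supplied 65.6% of the UMIs (Glul) to 87.8% (Slc1a3).

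Slc6a11 averaged 236 ± 27.8 CPM in astrocytes. The next classes were mixed neurons, OPC and inhibitory neurons, between 22.4 and 23.4 CPM, which did not differ beyond their spread over libraries. Mlc1 averaged 195 ± 10.7 CPM in astrocytes and was at 14.1 CPM or less in every other class (microglia), a pooled ratio of 13.8 between astrocytes and the next class. The same ratio was 20.7 for Slc1a2, 10.0 for Slc6a11 and at most 4.75 for the other genes that were highest in astrocytes. UMIs of Slc6a11 and Mlc1 were found in 19.7% and 17.9% of thinned astrocyte nuclei, against 0.137% and 0.73% of choroid plexus nuclei.

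**Figure D1:**
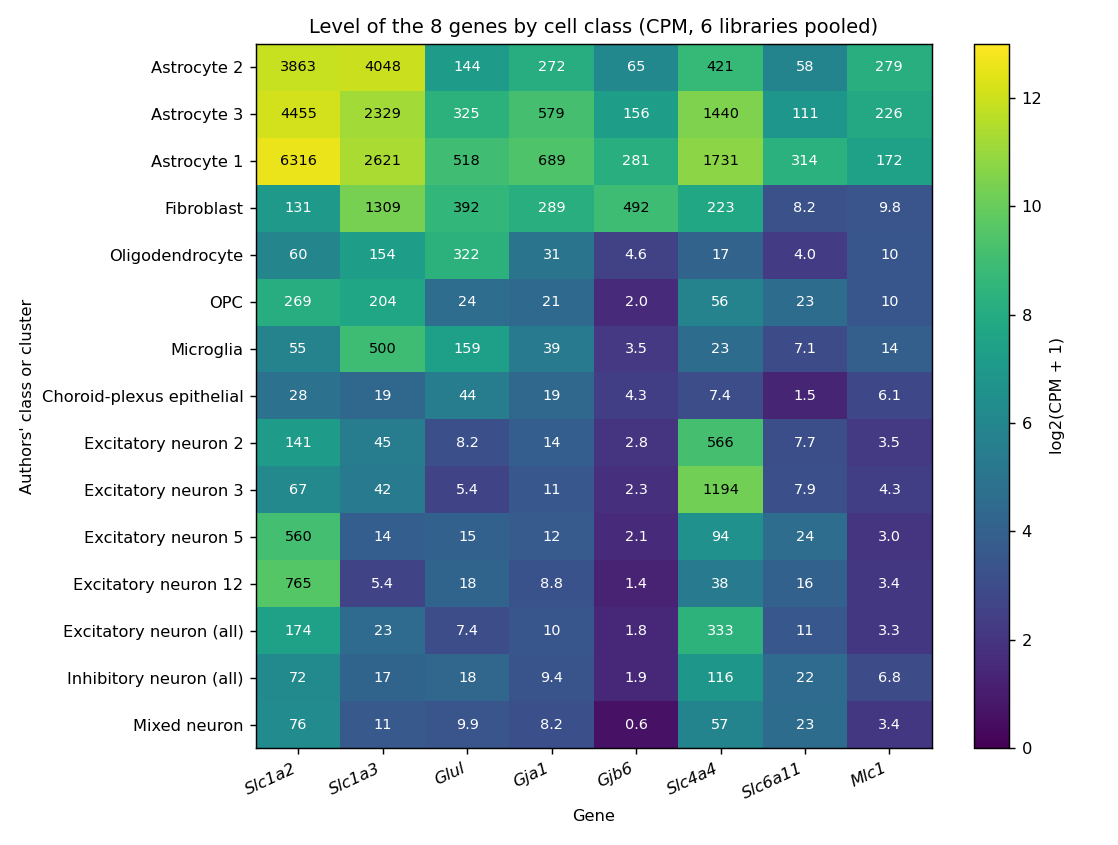
Level of each gene (columns) in the astrocyte clusters, the other classes and 4 excitatory clusters (lines of the grid), over the 6 libraries together. Numbers are CPM and colours are log2(CPM + 1). Gjb6 is highest in fibroblasts at 492 CPM, and Slc4a4 stands at 1194 CPM in excitatory cluster 3.

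Among the neuron clusters, those highest in Slc4a4 were not those highest in Slc1a2, although excitatory cluster 16 held both (378 CPM of Slc4a4 and 481 CPM of Slc1a2). Excitatory cluster 3 had 1194 CPM of Slc4a4, between the 421 CPM of Astrocyte 2 and the 1440 CPM of Astrocyte 3. Its library values were 1190 CPM in TBI VEGFC left, 1143 in TBI GFP left, 1212 in TBI VEGFC right, 1172 in TBI GFP right, 1226 in sham VEGFC right and 1229 in sham GFP right. The 6 libraries differed little and the vector groups overlapped. Next came excitatory cluster 15 (728 CPM), inhibitory cluster 5 (698), and excitatory clusters 2 (566), 8 (548) and 6 (531), against 12.2 CPM in excitatory cluster 4 and 6.60 CPM in excitatory cluster 1. Clusters 2 and 3 together held 31.3% to 44.2% of excitatory nuclei and 74.3% to 83.0% of the excitatory Slc4a4 UMIs, depending on the library.

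Slc1a2 in neurons was highest in excitatory cluster 12 (765 CPM), followed by cluster 5 (560), cluster 16 (481), cluster 10 (345) and cluster 4 (307). Cluster 1 had 47.1 CPM. In cluster 12 the library values were 899 CPM in TBI VEGFC left, 724 in TBI GFP left, 876 in TBI VEGFC right, 548 in TBI GFP right, 670 in sham VEGFC right and 976 in sham GFP right. The ratio of Slc1a2 to Slc1a3 UMIs was 7.7 in excitatory neurons as a whole (95% counting interval 7.27 to 8.17) and 26.0 in cluster 4 (20.9 to 32.9), against 2.17 in astrocytes (2.14 to 2.2). Cluster 12 held 1135 Slc1a2 UMIs and 8 of Slc1a3. All 8 came from TBI GFP left, where the ratio was 28.2 (14.1 to 66.2), and Slc1a3 was at 0 in the other 5 libraries. The part of free RNA in these levels was not tested. The ratio of Slc1a2 to Slc1a3 UMIs was 1.32 in OPC and 0.1 in fibroblasts.

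The 3 astrocyte clusters carried the genes in different proportions. Astrocyte 2 was small, with 19 to 57 nuclei per library, and had high Thrsp (737 CPM in Astrocyte 2, 147 in Astrocyte 3 and 127 in Astrocyte 1) and Hopx (368, 110 and 93.9 CPM in the same order). Astrocyte 3 had the highest Gfap (1641 CPM, with 1076 in Astrocyte 2 and 522 in Astrocyte 1) and Aqp4 (958, 149 and 310 CPM for Astrocyte 3, 2 and 1). Astrocyte 1 was the largest and had the highest Gpc5 (2481 CPM in Astrocyte 2, 3192 in Astrocyte 3 and 7979 in Astrocyte 1). Ratios between clusters are given below as the mean log2 ratio over the 6 libraries with its SD, as descriptions.

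Of the 8 genes, 6 were lower in Astrocyte 2 than in Astrocyte 1 in all 6 libraries, and Slc1a3 and Mlc1 were higher in all 6. Slc6a11 was the lowest of these relative to Astrocyte 1, at 57.5 CPM in Astrocyte 2 and 314 CPM in Astrocyte 1, a log2 ratio of -2.56 ± 0.82. Its library values in Astrocyte 2 were 102 CPM in TBI VEGFC left, 55.7 in TBI GFP left, 88.4 in TBI VEGFC right, 17.6 in TBI GFP right, 40.0 in sham VEGFC right and 64.9 in sham GFP right, all far below the lowest Astrocyte 1 library (269 CPM). Gjb6 stood at 65.3 CPM in Astrocyte 2 and 281 in Astrocyte 1 (-2.27 ± 0.80), and Slc4a4 at 421 and 1731 CPM (-2.03 ± 0.20). Over all libraries these 3 genes stood at 0.183, 0.233 and 0.243 times their Astrocyte 1 level.

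Glul had 144 CPM in Astrocyte 2 and 518 in Astrocyte 1 (-1.83 ± 0.55), and Gja1 had 272 and 689 CPM (-1.32 ± 0.51). Slc1a2 was less far apart, with 3863 and 6316 CPM (-0.72 ± 0.18). The Astrocyte 2 sums were small for Slc6a11 (22 UMIs in all, 1 to 6 per library), Gjb6 (25 UMIs, 1 to 7) and Glul (55 UMIs, 6 to 14), so their ratios are imprecise. No library range of Astrocyte 2 reached that of Astrocyte 1 for any of the 6 genes.

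The glutamate transporter Slc1a3 ran the other way. It was at 2999 CPM in TBI VEGFC left, 4790 in TBI GFP left, 3979 in TBI VEGFC right, 3916 in TBI GFP right, 4114 in sham VEGFC right and 4237 in sham GFP right in Astrocyte 2. In Astrocyte 1 the same libraries had 2418, 2665, 2629, 2602, 2833 and 2581 CPM. The ranges did not overlap, and the log2 ratio of Astrocyte 2 over Astrocyte 1 was 0.60 ± 0.18. Mlc1 was likewise higher, at 279 CPM in Astrocyte 2 and 172 in Astrocyte 1 (0.68 ± 0.24). As a result, Slc1a2 and Slc1a3 UMIs were nearly equal in Astrocyte 2, with a ratio of 0.954 (95% counting interval 0.888 to 1.03), against 1.91 in Astrocyte 3 (1.86 to 1.96) and 2.41 in Astrocyte 1 (2.37 to 2.45). Between libraries the Astrocyte 2 ratio ran from 0.663 in TBI GFP left to 1.49 in TBI VEGFC left.

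Astrocyte 3 stood between the other clusters for 7 of the 8 genes, and differed from Astrocyte 1 in the same direction in all 6 libraries for each gene. Slc6a11 was again the furthest apart, with 111 CPM in Astrocyte 3 and 314 in Astrocyte 1 (log2 ratio -1.50 ± 0.10). Gjb6 had 156 and 281 CPM (-0.84 ± 0.16), Glul 325 and 518 CPM (-0.67 ± 0.10) and Slc1a2 4455 and 6316 CPM (-0.50 ± 0.06). The remaining genes were closer. Gja1 had 579 and 689 CPM (-0.26 ± 0.13), Slc4a4 1440 and 1731 CPM (-0.26 ± 0.06) and Slc1a3 2329 and 2621 CPM (-0.18 ± 0.06). Mlc1 was higher in Astrocyte 3, at 226 CPM against 172 CPM (0.39 ± 0.16). The exception to the middle position was Slc1a3, for which Astrocyte 3 was the lowest cluster. Astrocyte 2 and Astrocyte 3 differed in the same direction in all 6 libraries for 6 genes, and in 5 of 6 for Slc6a11 and Mlc1.

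**Figure D2:**
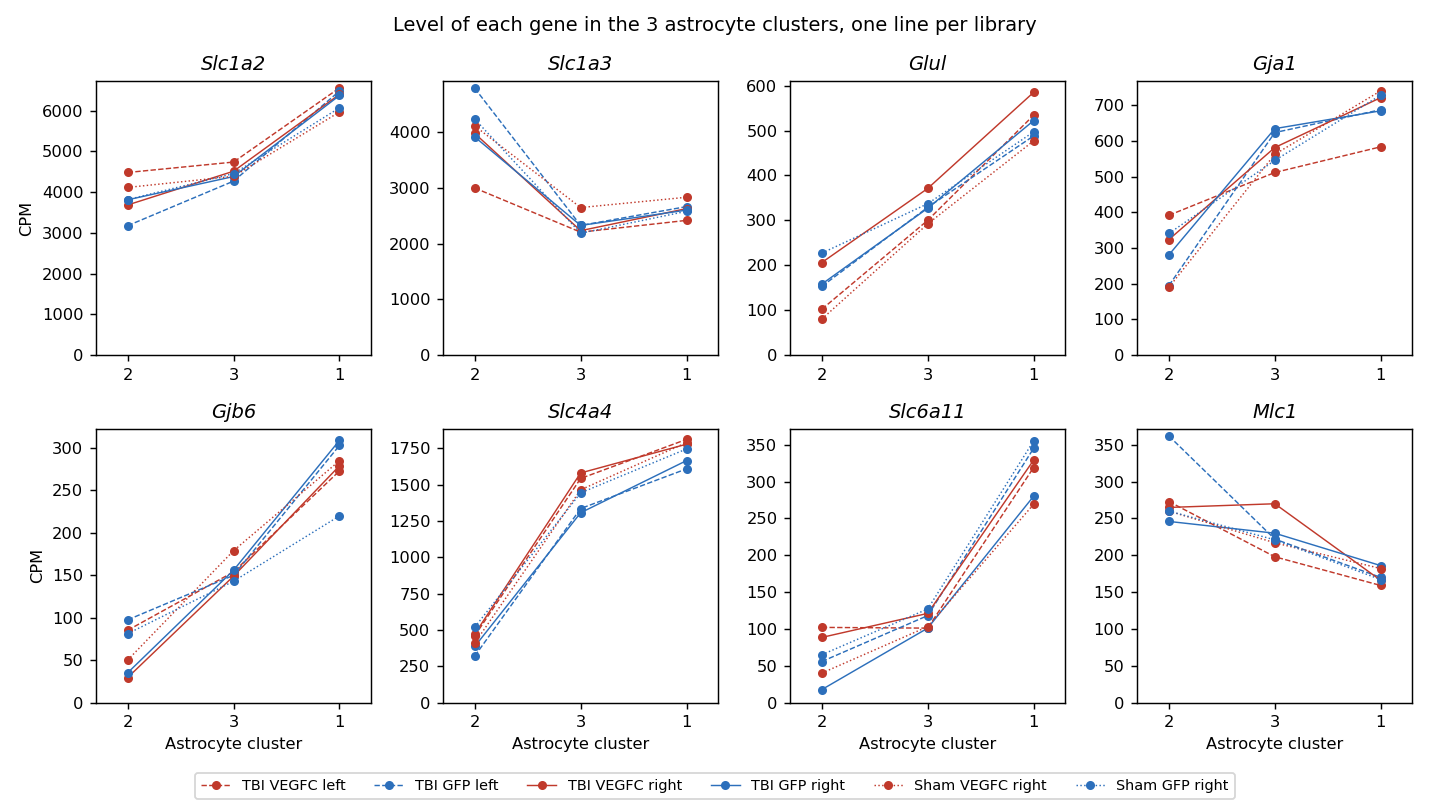
Level of each gene in Astrocyte 2, Astrocyte 3 and Astrocyte 1, in CPM, with 1 line per library. In Astrocyte 2, 6 genes lie below Astrocyte 1 in every library and Slc1a3 and Mlc1 lie above it.

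Counted per nucleus after thinning to 1000 UMIs, an astrocyte nucleus held UMIs of 3.93 of the 8 genes on average. The mean was 2.97 in Astrocyte 2, 3.52 in Astrocyte 3 and 4.19 in Astrocyte 1. At least 4 of the genes were found in 30.0% of Astrocyte 2 nuclei, 50.7% of Astrocyte 3 nuclei and 72.8% of Astrocyte 1 nuclei. Fibroblasts reached 4 or more genes in 7.28% of nuclei, and no nucleus of the other 7 classes did. Together the 8 genes made up 1.15% of all astrocyte UMIs, against 0.285% in fibroblasts and 0.0563% in excitatory neurons.

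Both connexins were found in the same thinned nucleus in 1.45% of Astrocyte 2, 5.76% of Astrocyte 3 and 11.3% of Astrocyte 1 nuclei, and in 11.9% of fibroblast nuclei. In astrocytes, nuclei with Gja1 UMIs and none of Gjb6 (36.3%) outnumbered those with Gjb6 alone (10.6%). In fibroblasts the order was turned, with 13.3% and 25.7%.

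**Figure D3:**
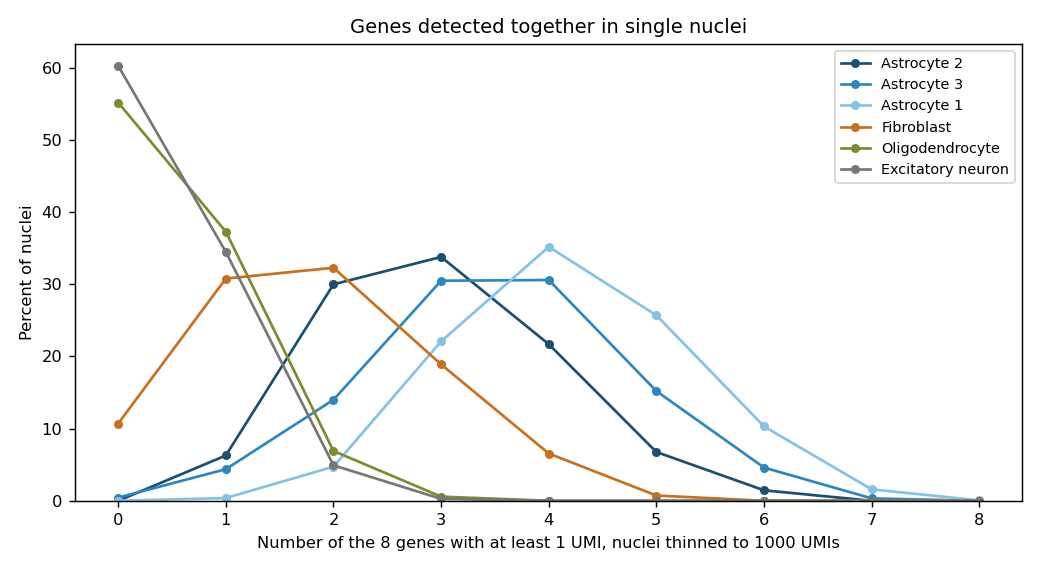
Share of nuclei by the number of the 8 genes with at least 1 UMI, after thinning to 1000 UMIs, for the astrocyte clusters and other classes. Astrocyte nuclei hold 3.93 genes on average, fibroblast nuclei 1.82 and excitatory neurons 0.451.

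Whether VEGFC, injury or side moved these genes in astrocytes was tested with edgeR on UMI sums per library, in 1 model over all 6 libraries with Benjamini-Hochberg adjustment over all genes. None of the 8 genes passed an adjusted p of 0.05 in any comparison. Levels over libraries were close, with a coefficient of variation from 3.62% (Slc1a2) to 11.8% (Slc6a11). The model left 2 residual degrees of freedom, and edgeR borrowed the rest of the spread from other genes.

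For VEGFC against GFP, 0 of the 8 genes passed, where 0.0543% of the 12883 genes tested did. Slc4a4 was at 1674 CPM in TBI VEGFC left against 1466 in TBI GFP left, at 1682 in TBI VEGFC right against 1496 in TBI GFP right, and at 1597 in sham VEGFC right against 1587 in sham GFP right. VEGFC was above GFP in all 3 pairs, and all 3 VEGFC values lay above all 3 GFP values. The log2 fold change was 0.16 (SE 0.07, 95% interval 0.02 to 0.30), with an unadjusted edgeR p of 0.0288 and an edgeR adjusted p of 0.76. Without the sham GFP library, and likewise without the sham VEGFC library, the fold was 0.23. Each of these settings leaves the sham context without a pair, so both give the fold of the TBI pairs and are not separate results.

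The other 7 genes had log2 folds from -0.05 (Slc6a11) to 0.07 (Glul). Slc1a2 had 5866 CPM in TBI VEGFC left against 5623 in TBI GFP left, 5681 in TBI VEGFC right against 5566 in TBI GFP right, and 5299 in sham VEGFC right against 5405 in sham GFP right, a fold of 0.06. The median absolute fold was 0.05 over the 8 genes and 0.13 over all genes tested. Only Slc4a4 had an unadjusted edgeR p under 0.05, as did 821 genes in all. Microglial markers (325 CPM) and choroid plexus markers (723 CPM) were highest in the sham VEGFC astrocytes, and their part in these values was not tested.

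For TBI right against sham right, 0 of the 8 genes passed, where 0.326% of all genes tested did. Glul was at 502 CPM in TBI VEGFC right and 440 in TBI GFP right, against 389 in sham VEGFC right and 429 in sham GFP right. Both TBI values lay above both sham values. The log2 fold was 0.23 (SE 0.10, 95% interval 0.03 to 0.44), with an unadjusted edgeR p of 0.0223 and an edgeR adjusted p of 0.597. Without the sham GFP library the fold was 0.39, with sham VEGFC right (389 CPM) as the only sham library. Gjb6 was at 228 and 245 CPM in TBI VEGFC right and TBI GFP right, against 234 and 187 CPM in sham VEGFC right and sham GFP right, a fold of 0.20 (SE 0.11) with an edgeR adjusted p of 0.805. The groups overlapped, and the sham GFP library was the low one. The other 6 genes had folds from -0.05 (Slc1a3) to 0.10 (Slc1a2 and Mlc1), and the median absolute fold was 0.08 against 0.16 over all genes. Pan-neuronal markers in astrocytes summed to 251 and 270 CPM in the TBI right libraries and to 306 and 426 CPM in the sham libraries, and their part was not tested.

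For TBI left against TBI right, 0 of the 8 genes passed, as did 0% of all genes tested. At an unadjusted edgeR p under 0.05 there were 517 genes and none of the 8. DESeq2 also called 0 genes. Folds ran from -0.14 (Gja1 and Mlc1) to 0.12 (Slc6a11). Gja1 was at 553 CPM in TBI VEGFC left and 647 in TBI GFP left, against 665 in TBI VEGFC right and 655 in TBI GFP right, so TBI VEGFC left was the low library. Mlc1 had the same low library, with 176 and 195 CPM on the left against 205 and 204 CPM on the right. This comparison shares the TBI right libraries with the one before.

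**Figure D4:**
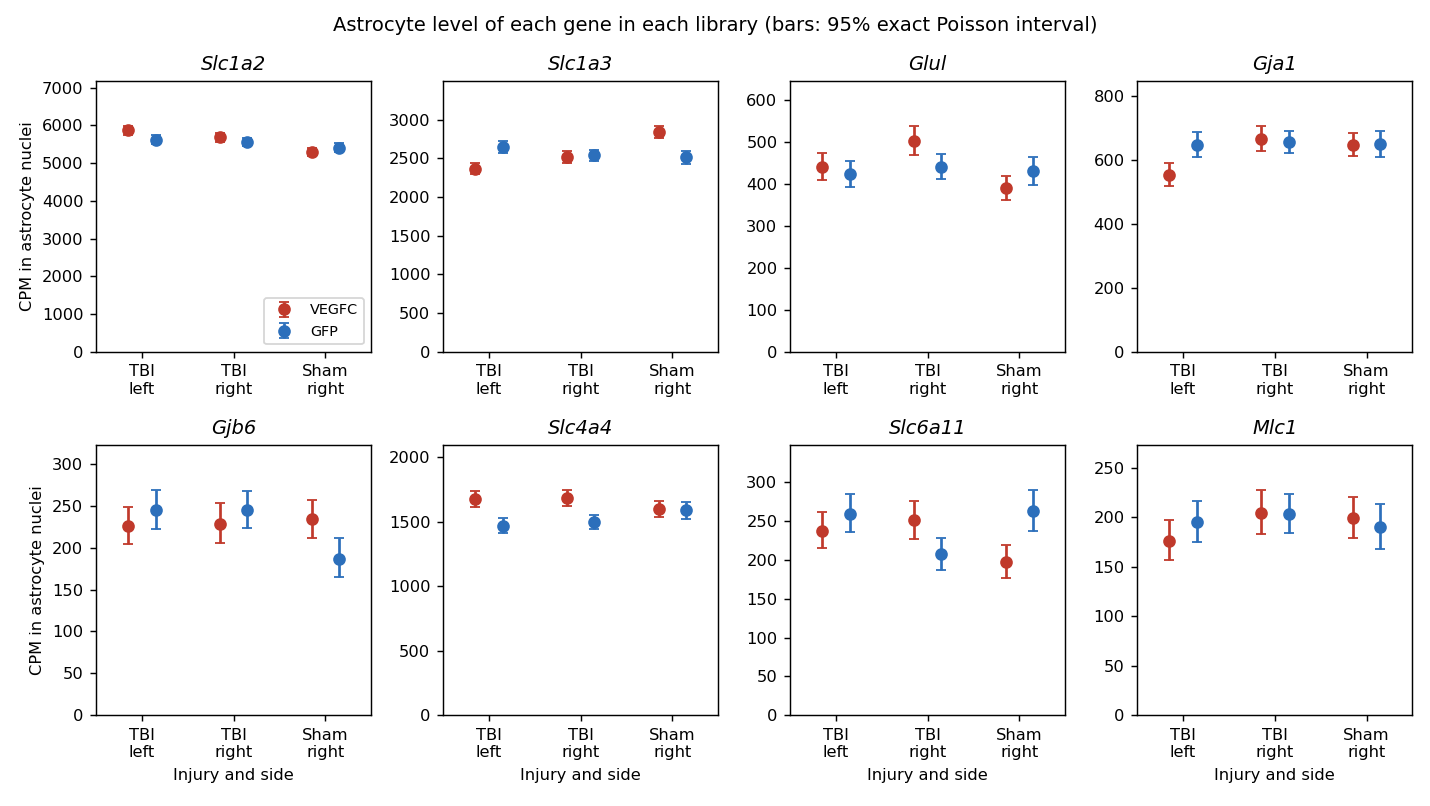
Astrocyte level of each gene in the 6 libraries, in CPM, each with its 95% counting interval. Slc4a4 is higher with VEGFC in all 3 pairs, and Gjb6 is lower with VEGFC in both TBI pairs and higher in the sham pair.

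Whether the VEGFC difference was larger after TBI than after sham was tested with left and right TBI libraries taken as replicates. None of the 8 genes passed, where 0.0738% of 13550 genes tested did, although 5 of the 8 had an unadjusted edgeR p under 0.05, as did 8.02% of all genes. Slc6a11 was at 237 CPM in TBI VEGFC left against 259 in TBI GFP left, at 251 in TBI VEGFC right against 207 in TBI GFP right, and at 197 in sham VEGFC right against 263 in sham GFP right. The sham pair was the furthest apart, and the TBI pairs pointed in different directions. The difference of log2 folds was 0.53 (SE 0.17, 95% interval 0.19 to 0.88), with an unadjusted edgeR p of 0.00355 and an edgeR adjusted p of 0.354. Without the TBI GFP left library it was 0.69, with TBI GFP right as the only TBI GFP library.

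Gjb6 differed in the other direction. It was at 226 CPM in TBI VEGFC left against 245 in TBI GFP left, at 228 in TBI VEGFC right against 245 in TBI GFP right, and at 234 in sham VEGFC right against 187 in sham GFP right. VEGFC was lower in both TBI pairs and higher in the sham pair, a difference of -0.39 (SE 0.16, 95% interval -0.71 to -0.07) with an edgeR adjusted p of 0.517. The others under 0.05 before adjustment were Glul (0.31), Slc4a4 (0.22) and Slc1a3 (-0.22), with edgeR adjusted p-values of 0.559, 0.593 and 0.55. Slc1a3 was at 2365 CPM in TBI VEGFC left against 2643 in TBI GFP left, at 2518 in TBI VEGFC right against 2538 in TBI GFP right, and at 2838 in sham VEGFC right against 2512 in sham GFP right. The sham arm of this comparison is 1 library per vector, so each of these differences rests on a single pair of sham libraries.

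**Figure D5:**
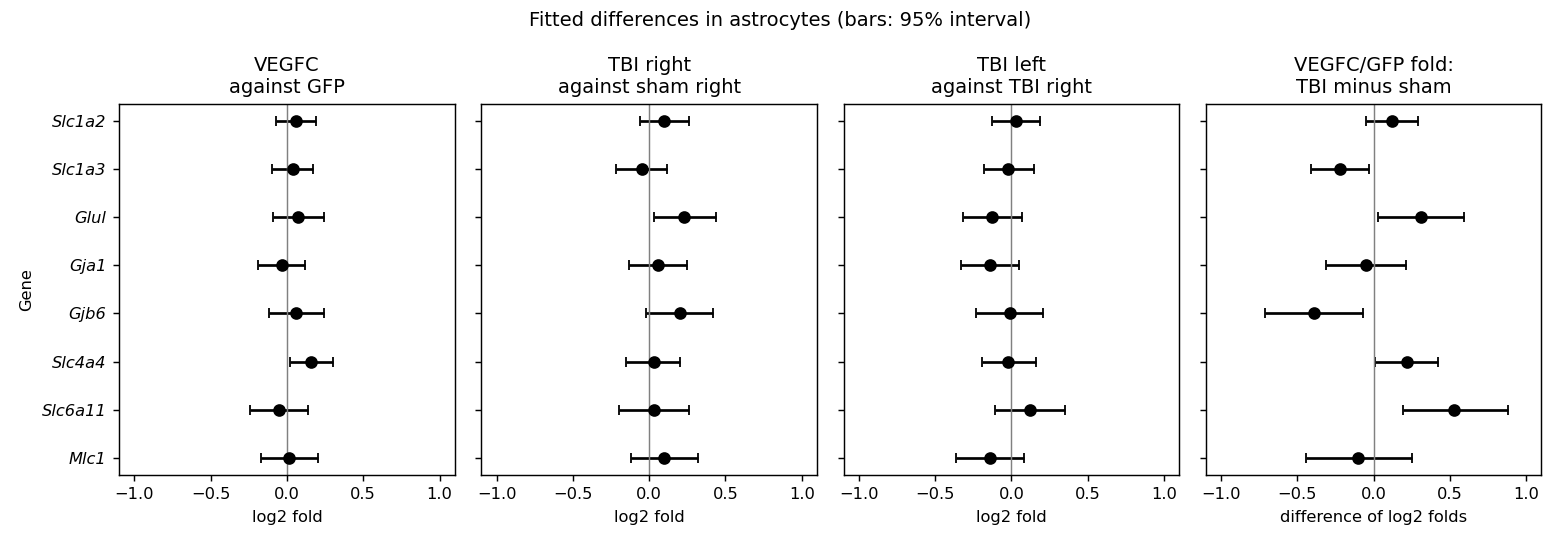
Log2 fold change of each gene in astrocytes with its 95% interval from edgeR, for the 3 comparisons and the difference of VEGFC folds between TBI and sham. No gene passed an adjusted p of 0.05. The largest values are 0.53 for Slc6a11 and -0.39 for Gjb6 in the difference of folds.

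The balance within pairs of genes was also compared, since a ratio within a library does not depend on its total. The log2 ratio of Slc1a2 to Slc1a3 in astrocytes was higher with VEGFC by 0.22 in TBI left and by 0.04 in TBI right, and was -0.20 in the sham pair. The mean difference was 0.02 (exact two-sided sign-flip permutation p = 0.75, n = 3 contexts, where p cannot go below 0.25). For Gja1 to Gjb6 the differences were -0.11 in TBI left, 0.12 in TBI right and -0.33 in the sham pair, with a mean of -0.10 (exact permutation p = 0.75). Neither pair had the same sign in all 3 contexts.

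Within single clusters the result was alike. In Astrocyte 1 and Astrocyte 3 tested apart, 0 of the 8 genes passed for VEGFC against GFP (0.0241% of all tests in these clusters), for TBI right against sham right (0.0771%) and for TBI left against TBI right (0%). Slc4a4 in Astrocyte 3 was at 1542 CPM in TBI VEGFC left against 1335 in TBI GFP left, at 1580 in TBI VEGFC right against 1306 in TBI GFP right, and at 1464 in sham VEGFC right against 1443 in sham GFP right. The VEGFC values all lay above the GFP values, and the log2 fold was 0.21 (SE 0.09), with an edgeR adjusted p of 0.674. Astrocyte 2 had under 20 nuclei in 1 library and was not tested. The share of astrocytes in Astrocyte 1 was 61.2% to 66.8% over libraries.

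Outside astrocytes, the 8 other classes gave 1 call among the members. Between 2 of the 8 genes (microglia) and all 8 (excitatory neurons) passed the low-count filter there. The call was Slc1a2 in fibroblasts for TBI left against TBI right, a log2 fold of 2.92 with an edgeR adjusted p of 3.86e-08, where 0.0377% of all tests in these classes passed. No member passed for VEGFC against GFP (0.0232% of all tests) or for TBI right against sham right (0.0319%). In each left library, most or all of the fibroblast Slc1a2 UMIs lay in 1 nucleus. TBI VEGFC left had 19 Slc1a2 UMIs in 27 fibroblast nuclei, 17 of them in 1 nucleus, and TBI GFP left had 26 UMIs in 32 nuclei, all in 1 nucleus. In the right libraries there were 6 UMIs in TBI VEGFC right and 10 in TBI GFP right, spread over 5 and 9 nuclei. Without the nucleus richest in Slc1a2 of each library, the level was 48.8 CPM in TBI VEGFC left and 0 in TBI GFP left, against 41.2 CPM in TBI VEGFC right and 52.7 CPM in TBI GFP right. Slc1a2 then failed the low-count filter and the call was gone. This setting was chosen after the data were seen. The nuclei left out were picked by their Slc1a2 count, so the setting cannot test the cause of the call.

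In microglia, Slc1a3 was at 612 CPM in TBI VEGFC left against 189 in TBI GFP left, at 614 in TBI VEGFC right against 456 in TBI GFP right, and at 534 in sham VEGFC right against 359 in sham GFP right. VEGFC was higher in all 3 pairs, and the groups did not overlap. The GFP value of 189 rested on 11 UMIs. The log2 fold was 0.84 (SE 0.23), with an edgeR adjusted p of 0.219 and an limma-voom adjusted p of 0.025. Glul in oligodendrocytes was steady, at 307 CPM in TBI VEGFC left, 287 in TBI GFP left, 353 in TBI VEGFC right, 331 in TBI GFP right, 322 in sham VEGFC right and 325 in sham GFP right.

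In inhibitory neurons, Slc4a4 was at 67.2 CPM in TBI VEGFC left against 218 in TBI GFP left, at 103 in TBI VEGFC right against 63.6 in TBI GFP right, and at 90.4 in sham VEGFC right against 126 in sham GFP right. Its log2 fold was -0.51 (SE 0.33, edgeR adjusted p = 0.981) for VEGFC against GFP. For TBI left against TBI right it was 0.67 (SE 0.41), and neither passed. Without TBI VEGFC left, which left TBI GFP left as the only left library, the fold of left against right was 1.44. Inhibitory cluster 5 had 698 CPM of Slc4a4. Its share of inhibitory nuclei was 0.487% in TBI VEGFC left, 20.9% in TBI GFP left and 7.47% in TBI VEGFC right. It was 2.55% in TBI GFP right, 8.04% in sham VEGFC right and 9.48% in sham GFP right. TBI GFP left was highest in both the share and the level, but the order of the other libraries was not the same in both. The part of this share in the Slc4a4 values was not tested. Without that cluster, TBI GFP left had 103 CPM and the other libraries 53.3 to 60.9 CPM.

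Neuron clusters in which a gene reached 500 CPM were tested one by one, a step added after the data were seen. In the 6 excitatory clusters with at least 20 nuclei in every library (2, 3, 5, 6, 8 and 12), 0 members passed for VEGFC against GFP (0.0325% of all tests), for TBI right against sham right (0.067%) and for TBI left against TBI right (0%). Slc4a4 in cluster 3 had folds of 0.05, -0.03 and -0.03 in the same order. In cluster 12 its fold for VEGFC against GFP was -1.13 (SE 0.48), with an unadjusted edgeR p of 0.0232 and an edgeR adjusted p of 0.997. Of the 3 members tested in cluster 5, Slc4a4 had the smallest p for VEGFC against GFP, with 58.8 CPM in TBI VEGFC left against 99.3 in TBI GFP left, 28.6 in TBI VEGFC right against 107 in TBI GFP right, and 110 in sham VEGFC right against 114 in sham GFP right. Its fold was -0.67 (SE 0.27), with an edgeR adjusted p of 0.649. Without the sham GFP library, and likewise without the sham VEGFC library, the fold was -1.16. Either omission leaves the sham context without a pair, so both settings give the fold of the TBI pairs and are not separate results.

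Other genes of the same pathways were followed in astrocytes through 6 lists. In the glutamate and glutamine cycle, 16 of 18 listed genes could be tested, and 1 rose and none fell in TBI right against sham right, with a median log2 fold of 0.06 (0 over all genes). It was Slc38a1, a neutral amino acid transporter that carries glutamine, with 205 CPM in TBI VEGFC right and 173 in TBI GFP right, against 142 in sham VEGFC right and 113 in sham GFP right. The groups did not overlap, and the log2 fold was 0.59 (SE 0.13, edgeR adjusted p = 0.0111). In the left hippocampus it was at 123 CPM in TBI VEGFC left and 169 in TBI GFP left. Slc38a2, of the same family, had a fold of 0.36 and did not pass (edgeR adjusted p = 0.597).

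Among genes of potassium, water and volume control, 16 of 17 could be tested, and 1 fell and none rose in TBI right against sham right (median 0.03). Kcnk1, a leak potassium channel, was at 33.4 CPM in TBI VEGFC right and 43.3 in TBI GFP right, against 72.8 in sham VEGFC right and 63.3 in sham GFP right. The log2 fold was -0.82 (SE 0.19, edgeR adjusted p = 0.0224), and the TBI left libraries, with 24.8 CPM in TBI VEGFC left and 48.2 in TBI GFP left, lay below both sham libraries too. The water channel gene Aqp4 did not pass for VEGFC against GFP (0.19, edgeR adjusted p = 0.719), and the potassium channel gene Kcnk2 did not pass for TBI right against sham right (0.41, edgeR adjusted p = 0.273).

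Of the neurotransmitter receptors, 10 of 12 could be tested, and 1 fell and none rose in TBI right against sham right (median -0.06). Grm5, a metabotropic glutamate receptor, was at 355 CPM in TBI VEGFC right and 301 in TBI GFP right, against 434 in sham VEGFC right and 454 in sham GFP right, a log2 fold of -0.41 (SE 0.10, edgeR adjusted p = 0.0497). Under DESeq2 none of these 3 genes passed, with adjusted p-values of 1. All 3 were also lost when the Astrocyte 1 nuclei were tested alone, with edgeR adjusted p-values of 0.599 for Slc38a1, 0.222 for Kcnk1 and 0.373 for Grm5. Slc38a1 was at 413 CPM in Astrocyte 2, 319 in Astrocyte 3 and only 46.6 in Astrocyte 1, so that setting left out the clusters where it was highest. Kcnk1 (51.4 CPM in Astrocyte 3 and 46.9 in Astrocyte 1) and Grm5 (427 and 343 CPM) differed less. Pan-neuronal markers in the same astrocyte sums were lower in the TBI right than in the sham libraries (251 and 270 against 306 and 426 CPM). Grm5 was at 2012 CPM in excitatory and 2580 CPM in inhibitory neurons, against 376 CPM in astrocytes. Slc38a1 and Kcnk1 were lower in both neuron classes than in astrocytes. The part of neuronal RNA in these folds was not tested. Without the 10% of astrocyte nuclei richest in markers of other types, the folds were -0.84 for Kcnk1 (edgeR adjusted p = 0.0504), -0.42 for Grm5 (edgeR adjusted p = 0.0836) and 0.60 for Slc38a1 (edgeR adjusted p = 0.0248), close to those with all nuclei. Single libraries decided these calls. For Slc38a1 the edgeR adjusted p was 0.182 without sham GFP, 0.0577 without TBI GFP right and 0.924 without TBI VEGFC right. For Kcnk1 it was 0.709 without sham VEGFC, where the fold was -0.42, 0.428 without TBI GFP right and 0.556 without TBI VEGFC right. For Grm5 it was 0.0655 to 1 without any 1 of the 6 libraries other than sham VEGFC.

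The VEGFC fold of Grm3, another metabotropic glutamate receptor, differed between TBI and sham. Grm3 was at 782 CPM in TBI VEGFC left against 599 in TBI GFP left, at 756 in TBI VEGFC right against 563 in TBI GFP right, and at 638 in sham VEGFC right against 729 in sham GFP right. VEGFC was higher in both TBI pairs and lower in the sham pair. The difference of log2 folds was 0.64 (SE 0.12, 95% interval 0.40 to 0.88, edgeR adjusted p = 0.0113), and it was the only one of the listed genes to pass in that comparison. DESeq2 gave an adjusted p of 1.

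In the lists for GABA and glycine uptake and breakdown (7 of 10 tested), connexins, pannexins and associated genes (3 of 12 tested, 4 in the difference of folds), and pH, bicarbonate and lactate (10 of 13 tested, 11 in the difference of folds), no gene passed in any of the 4 comparisons. No gene of any list passed for VEGFC against GFP or for TBI left against TBI right. Slc6a6, the taurine transporter, had the smallest p of its list for VEGFC against GFP with a fold of -0.26 (edgeR adjusted p = 0.894). Slc4a8, a bicarbonate transporter, had -0.24 (edgeR adjusted p = 0.866). Slc25a18, a mitochondrial glutamate carrier, had 0.36 (edgeR adjusted p = 0.565). On the left against the right, Slc38a1 (-0.37), Kcnk2 (-0.36) and Gabbr2 (0.41) had the smallest p of their lists, each with an edgeR adjusted p of 1.

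Lastly, the genes whose levels ran most like each member over 31 clusters with at least 50 nuclei were sought by Pearson's r of log2(CPM + 1), among 10483 genes. The clusters share libraries and the astrocyte clusters weigh heavily, so the values are descriptions. For Slc1a2 they were its antisense transcript Gm13872 (0.922), 2810459M11Rik (0.837) and Cbs (0.824), and for Slc1a3 they were Apoe (0.927), Gja1 (0.915) and Cst3 (0.91). Glul ran closest to Ccdc152 (0.906), Gab1 (0.897) and Csrp1 (0.891). Among the closest to Gja1 were Slc9a3r1 (0.932) and D630033O11Rik (0.926), and among the closest to Gjb6 were Gja1 (0.918) and Slc7a11 (0.917). The closest genes to Mlc1 were Aldoc (0.909), Gm9750 (0.899) and Itih3 (0.897).

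Slc6a11 and Slc4a4 had the loosest matches. For Slc6a11 they were Gdpd2 (0.813), Tubb2b (0.803) and Txlnb (0.788), and for Slc4a4 Pde7b (0.785), Pde8b (0.738) and Net1 (0.706). Among the members themselves, Gja1 and Gjb6 (r = 0.92) and Slc1a3 and Gja1 (r = 0.92) ran together over clusters, whereas Glul and Slc4a4 (r = 0.03) and Slc4a4 and Slc6a11 (r = 0.15) did not. With Spearman's rank correlation in place of Pearson's, 5 of these matches were again among the closest 3 of their member.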

How the data were processed

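Single-nucleus libraries were made with 10x Genomics 3′ v3.1 chemistry, per the labels' protocols. The submitters' processing notes name Cell Ranger 7.0.1, Scanpy and mm10. The authors deposited a matrix of raw UMI counts, and for each nucleus its library, class, cluster and a doublet score, which is at most 0.099 in the deposited metadata. No doublet caller was run, since scores above that are not in the files.

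Counts were summed per library and class and tested by edgeR 4.0.16 (quasi-likelihood; R 4.3.3), with filterByExpr, TMM and an additive model of context (TBI left, TBI right, sham right) and vector, with Benjamini-Hochberg adjustment over all genes tested and a threshold of 0.05. Each SE was taken as the size of the fold over the root of F. The difference of VEGFC folds used injury by vector. Classes and clusters needed 20 nuclei in every library. Intervals of ratios and levels are exact at 95% and cover counting error only. All nuclei had at least 1001 UMIs, so none was lost in thinning. The scripts were tested on simulated data.

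The 8 genes, the lists, the tests and the neuron clusters were chosen with earlier results of these data known. Named beside the 8 genes were list genes past the threshold, otherwise up to 3 with the smallest p of a list, and the 3 genes most like each member among those with at least 10 CPM in astrocytes, apart from a few genes that are not reported here. Alternatives were RLE size factors, library totals, no low-count filter, DESeq2 1.42.0, limma-voom (limma 3.58.1), a doublet score of at most 0.05, omission of the 10% of astrocyte nuclei richest in markers of other types, equal numbers of nuclei, Astrocyte 1 alone, no context term, and each library left out.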

Additional observations from a re-analysis of the deposited data

Results flagged for a closer look

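The VEGFC fold of Grm3 in astrocytes differed between TBI and sham by 0.64 on the log2 scale (edgeR interaction term, adjusted p = 0.0113), with VEGFC above GFP in both TBI pairs and below it in the sham pair. Over the alternatives the difference was 0.59 to 0.70. The adjusted p was 1 under DESeq2 and 0.0735 in nuclei with a doublet score of at most 0.05. The sham arm had 1 library per vector, and the setting without either sham library could not be fitted.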

How the results depend on the processing

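The replicate numbers pair no libraries, since each library has its own, and VEGFC and GFP libraries were matched by context in the model. The count of members past the threshold in astrocytes was 0 in all 4 comparisons and stayed 0 under every setting that kept all libraries, as did that in Astrocyte 1 and Astrocyte 3 apart. With 1 library left out it was 0 to 1 for VEGFC against GFP, for TBI right against sham right and for the difference of folds, and 0 for TBI left against TBI right. In the other classes the count of 1 was 3 with no low-count filter (adding Slc4a4 in inhibitory neurons, -0.52 for VEGFC against GFP and 0.68 for TBI left against TBI right), 2 with limma-voom, 0 with equal numbers of nuclei, 0 without the fibroblast nucleus richest in Slc1a2 of each library, and 0 to 2 with 1 library left out. In single neuron clusters it was 0, and 0 to 3 with 1 library left out. The cause was not tested for any of these. The other classes gave no value at a doublet score of at most 0.05, since some had a library with no nuclei left.

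Folds of the 8 genes near 0 changed sign. With library totals, which moved the median of all genes by -0.04, Mlc1 was -0.02 for VEGFC against GFP, and Slc4a4 -0.01 and Slc6a11 0.00 for TBI right against sham right. At a doublet score of at most 0.05, Glul was 0.00 for VEGFC, Gja1 -0.03 and Slc4a4 -0.06 for TBI right, Slc1a2 0.00, Slc1a3 0.01, Slc4a4 0.06 and Mlc1 0.00 for TBI left, and Gja1 0.04 and Mlc1 0.05 for the difference of folds. With equal numbers of nuclei, Gjb6 was 0.03 and Slc4a4 0.01 for TBI left. In Astrocyte 1 alone, Mlc1 was -0.02 for VEGFC, and Gja1 -0.03 and Slc4a4 0.00 for TBI right. With 1 library left out, VEGFC folds ran from -0.04 to 0.10 for Slc1a3, -0.06 to 0.13 for Gjb6, -0.23 to 0.12 for Slc6a11, -0.02 to 0.06 for Mlc1, 0.00 to 0.17 for Glul and -0.08 to 0.03 for Gja1. TBI right folds ran from -0.16 to 0.06 for Slc1a3, -0.08 to 0.13 for Slc4a4, -0.24 to 0.31 for Slc6a11 and -0.01 to 0.13 for Gja1. TBI left folds ran from -0.11 to 0.09 for Gjb6, -0.15 to 0.40 for Slc6a11, -0.09 to 0.05 for Slc4a4, -0.02 to 0.08 for Slc1a2 and -0.12 to 0.08 for Slc1a3. Differences of folds ran from -0.18 to 0.07 for Gja1 and from -0.20 to 0.00 for Mlc1.

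Among the list genes, the edgeR adjusted p of Kcnk1 was also 0.345 at the lower doublet limit, and that of Grm5 was 0.0515 with RLE and 0.0787 with equal numbers of nuclei. Counts over all genes in astrocytes moved more. The 7 calls for VEGFC against GFP were 15 with no filter, 0 with DESeq2, 0 at the lower doublet limit, 2 in Astrocyte 1, 3 with no context term and 0 to 106 with 1 library left out. The 42 for TBI right against sham right were 0 with DESeq2, 19 at the lower doublet limit, 19 without nuclei rich in other markers, 9 in Astrocyte 1 and 5 to 79 with 1 library left out. The 10 for the difference of folds were 33 with no filter, 0 with DESeq2, 19 with limma-voom, 2 at the lower doublet limit, 20 without nuclei rich in other markers, 17 in Astrocyte 1 and 21 to 45 with 1 library left out. The 0 for TBI left against TBI right were 2 without TBI VEGFC right. Of the calls, 71.4% were higher for VEGFC and 42.9% for TBI right under TMM, against 42.9% and 30.8% with library totals. Depth limits Astrocyte 2, fibroblasts, microglia, mixed neurons and the smaller neuron clusters, in which single libraries held under 60 nuclei.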
